A study of Ovis aries with 15 samples.

Results

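Genes for axon guidance and other neural functions were followed through the development of the longissimus dorsi (LD), a back muscle of the sheep, from mid gestation to 12 weeks after birth. They were chosen by name from the probe sets annotated with a single gene symbol. A gene was included when its symbol began with the prefix of a guidance ligand, a guidance receptor or a growth cone protein (SEMA, PLXN, EPHA, EPHB, EFNA, EFNB, ROBO, SLIT with a number, NTN, UNC5, STMN or DPYSL). It was also included when it was 1 of 10 listed neural genes (NES, S100B, NRP1, NRP2, MAP1B, TUBB3, GAP43, SEMA6A, EFNB1 and PMP22). The rule found 41 genes among the 9155 genes with a symbol of their own on the array, 8 of the 10 listed genes among them. For PMP22 and TUBB3 no probe set was named in the annotation used here. Where a gene had several probe sets, the one whose log2 signal averaged highest was used, and 29 of the 41 genes passed the filter on low signals and were tested. UNC50 was matched by its prefix but is no netrin receptor of the UNC5 family.

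The animals were Dorset/Suffolk/Rambouillet cross-bred sheep, and the methods of the study name no treatment or genetic change. Muscle was taken from fetuses at 80, 100 and 120 d of gestation. It was also taken from newborn lambs 1 to 3 days after birth (150 d of development) and from lambs aged 12 weeks (230 d). Each stage had 3 animals, different ones at each stage, and each animal had 1 array, 15 arrays in all. By the methods of the study the animals were male except for 1 female at 100 d and 1 at 120 d, and the labels do not say which arrays these are. The Affymetrix array carried bovine probes and the biotin-labelled RNA was ovine, so that a mismatch between the species can also lower a signal. Whole muscle holds fibres, nerve, vessels and connective tissue, and in such samples fewer cells of a type and less RNA per cell cannot be told apart. The median signal of an array was 51.4 to 69.4, and between 50.7% and 58.1% of its probe sets read 50 or more, the signal taken here as the lower limit of a usable value.

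A growing axon is steered by cues that its growth cone meets on the way to its target. Semaphorins act through plexins and neuropilins, ephrins through Eph receptors, Slits through Robo receptors and netrins through DCC and UNC5 receptors. Most of these cues can repel the growth cone, some can attract it, and the response runs through small GTPases to actin filaments and microtubules. Inside the neuron, proteins such as the collapsin response mediators (genes of the DPYSL family), the stathmins and MAP1B control how microtubules grow and shrink. In skeletal muscle motor axons form their synapses during fetal life, and surplus contacts are removed around and after birth in rodents. Nearly all of these families also act outside the nervous system, in blood vessels, in connective tissue and in muscle cells themselves.

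The detected genes ran mostly downwards with age. The highest stage mean stood at 80 d for 15 of the 29 tested genes, at 100 d for 5, at 120 d for 4, at 150 d for 2 and at 230 d for 3. Over all genes on the array with a usable probe set, 25.7% had their highest stage at 80 d and 26.6% at 230 d. The lowest stage mean stood at 150 d for 10 of the 29 genes and at 230 d for 14, against 24.3% and 29.2% of all genes. Stage means fell at every step for 6 genes (DPYSL3, EFNA2, MAP1B, NES, SLIT3 and STMN1), a course that 8.59% of all genes shared. These are descriptions with no test. A gene that was detected on fetal arrays alone had to be lower after birth, and EFNA2, EFNA5 and EFNB3 were such genes, with a signal of 50 or more on no postnatal array.

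**Figure D1:**
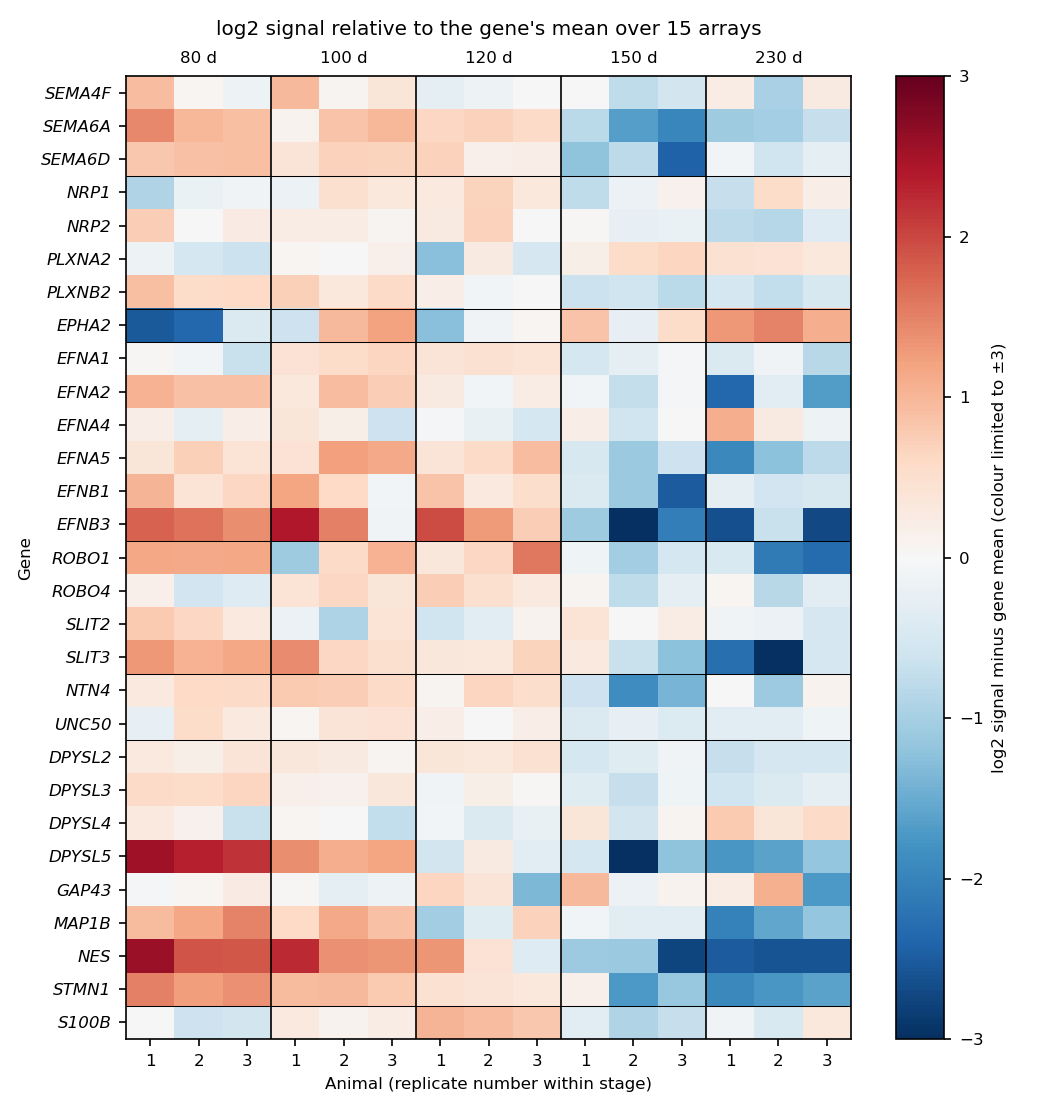
Signals of the 29 tested genes on the 15 arrays. Each row is a gene, each column an array ordered by stage from 80 d to 230 d, and colour gives the log2 signal minus the gene's mean over the arrays. Most rows are above their mean on the fetal arrays and below it on the postnatal arrays, while EPHA2 and PLXNA2 show the opposite course.

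The 12 genes that were not tested were EPHA1, EPHA7, NTN5, PLXNA3, PLXNA4, PLXNC1, ROBO2, SEMA3B, SEMA4A, STMN2, STMN3 and STMN4. Of these, 7 reached a signal of 50 on no array, 2 on 1 array and 3 on 2 arrays, and the highest signal of any of them was 97.3. EPHA7, a receptor for A-type ephrins, read 48.3 to 70.5 at 80 d and no more than 40.9 on any later array. The neuronal stathmins STMN2, STMN3 and STMN4 stayed at or below 46.1 throughout.

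By limma, the step across birth was the only one between neighbouring stages with calls among these genes. Changes named as at birth are those between 120 d and 150 d, and their time within that interval is not known. Between 150 d and 120 d, 9 of the 29 genes were lower at 150 d and 0 were higher, at an adjusted p under 0.01 by limma on log2 signals. The lower genes were 31% of those tested, while 6.77% of all probe sets and 6.53% of all genes were lower at that threshold. Without EFNA2, EFNA5 and EFNB3, which passed the filter through fetal arrays alone, 7 of 26 genes were lower (26.9%), against 6.45% of all genes that were detected on at least 1 array before and after birth. By the count of higher calls, 4.41% of all probe sets and 6.73% of all genes passed. The 9 genes were the semaphorins SEMA6A and SEMA6D, the ephrins EFNA5, EFNB1 and EFNB3, the netrin NTN4, and NES, S100B and DPYSL2. For each of them the 3 arrays at 150 d lay below the 3 at 120 d. The same was true of 18 of the 29 genes and of 22.9% of all probe sets, while 0 genes lay above, against 14.3% of all probe sets. The median log2 change of the 29 genes was -0.71, against -0.08 over all genes. An unadjusted p under 0.05 was reached by 18 genes.

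The count of 9 leaned on single arrays. It was 3 without 120 d replicate 1, without 120 d replicate 2 or without 150 d replicate 2. It was 4 without 120 d replicate 3 or 150 d replicate 3, and 5 without any 1 array of 80 d, without 100 d replicate 2 or without 230 d replicate 2. SEMA6A and S100B were called whichever array was left out, and SEMA6D lost its call only without 120 d replicate 1 (adjusted p = 0.012). With array medians set equal the count was 5, with no filter on low signals it was 3, and with only the 6 arrays of 120 d and 150 d it was 0. The moderated F-statistic named in the study's methods called 12 genes lower. There the F p-value over neighbouring stages was adjusted over all probe sets, and a contrast was then called at an unadjusted p under 0.01. Its counts do not compare directly with those by adjusted p, and the share of all probe sets was not computed for it.

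**Figure D2:**
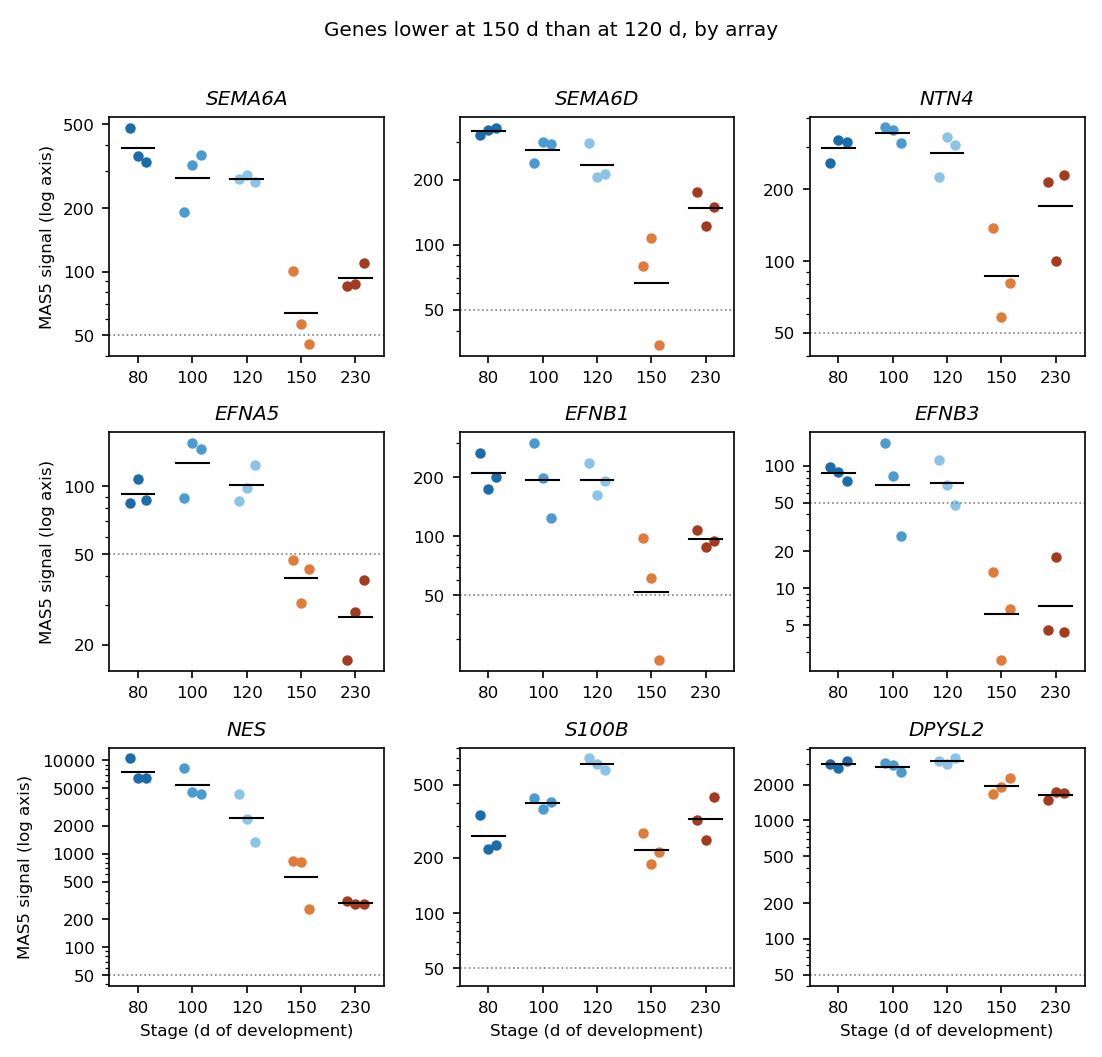
Signal per array of the 9 genes that were lower at 150 d than at 120 d, on a log axis, by stage in days. Points are single animals, horizontal lines are geometric means of 3 animals, and the dotted line marks a signal of 50. In each panel the 3 points at 150 d lie below the 3 at 120 d.

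Postnatal stages (150 d and 230 d, 6 arrays) were also set against fetal stages (80, 100 and 120 d, 9 arrays), with each stage given the same weight. Here 20 genes were lower after birth and 2 were higher, out of 29. The 20 genes were 69% of those tested, against 21.3% of all probe sets and 21.7% of all genes that were lower, and 13.3% of all probe sets and 16.4% of all genes were higher. Without the 3 genes detected on no postnatal array, 17 of 26 were lower (65.4%), against 21.2% of all genes that were detected on both sides of birth. The median log2 change was -0.75, against -0.08 over all genes, and 24 genes reached an unadjusted p under 0.05. The 6 postnatal arrays lay wholly below the 9 fetal arrays for 11 genes, and for 10.5% of all probe sets, and above them for 0 genes, against 6.78%. Without the filter on low signals, 17 of the 41 genes were lower and 0 were higher, with a median of -0.68. Leaving out single arrays gave 18 or 19 lower genes.

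**Figure D3:**
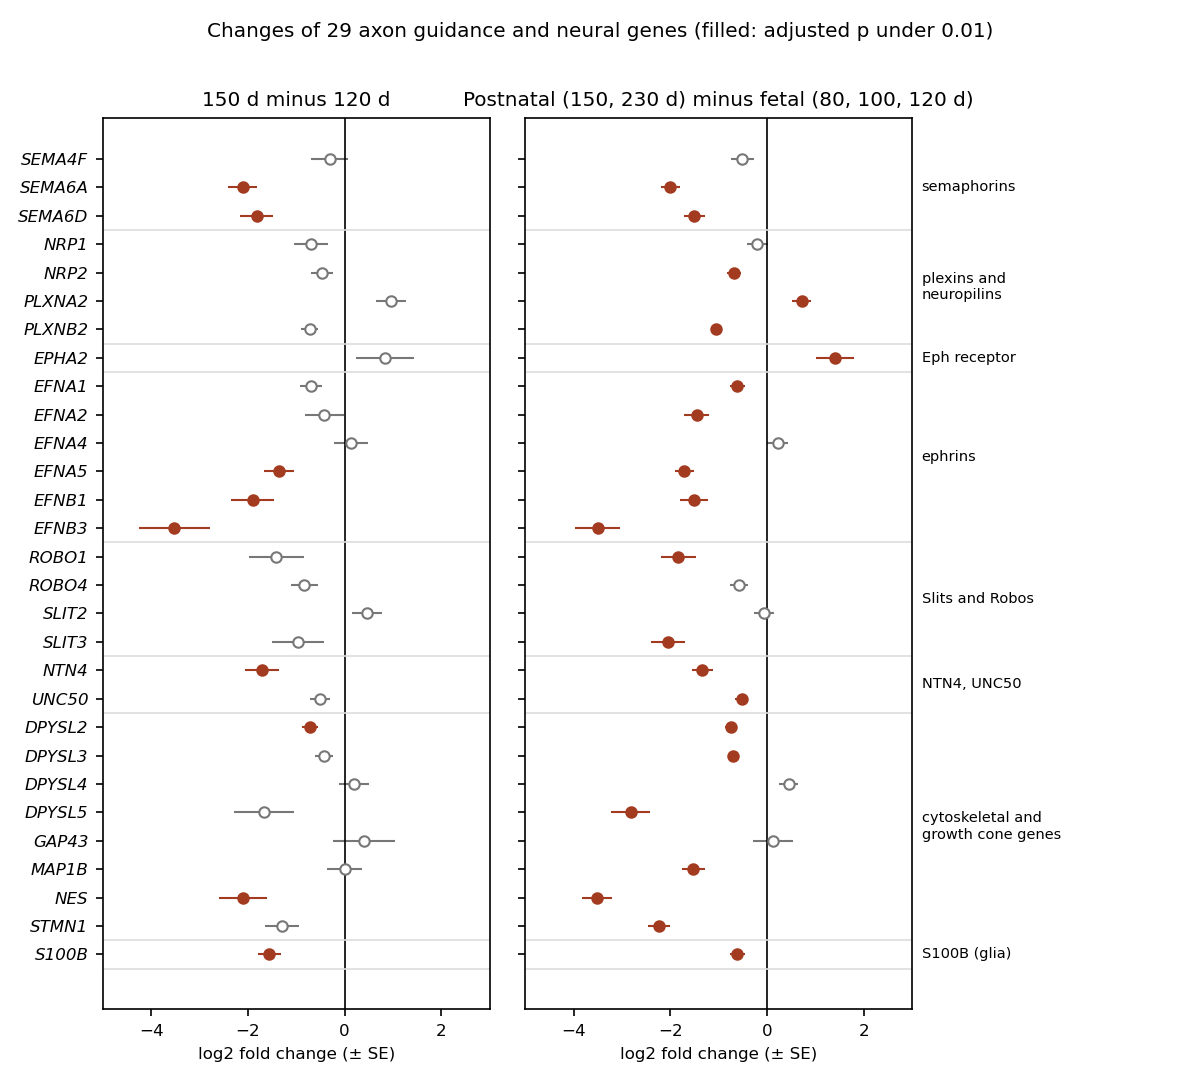
Log2 fold changes of the 29 tested genes with their standard errors, for 150 d minus 120 d and for postnatal minus fetal stages, with genes grouped by family. Filled points passed an adjusted p of 0.01. Filled points lie left of zero except those of EPHA2 and PLXNA2 in the postnatal comparison.

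Of the 3 semaphorins tested, the transmembrane proteins SEMA6A and SEMA6D were called lower at 150 d than at 120 d and over the postnatal comparison. Of all genes 6.53% and 21.7% were lower in these comparisons. SEMA6A, which binds plexins of class A and restrains growing axons and migrating cells, read 479.8, 355 and 332 at 80 d, 191, 319 and 356 at 100 d, 275, 289 and 265 at 120 d, 101, 56.4 and 45.7 at 150 d and 85.3, 87.6 and 109.6 at 230 d. No postnatal array reached the lowest fetal array. At 150 d SEMA6A was 4.32-fold lower than at 120 d (log2 change -2.11 ± 0.30 SE, adjusted p = 0.00054), and it was 4-fold lower in postnatal than in fetal muscle (adjusted p = 4.3e-06). A further SEMA6A probe set gave a change of -0.64 at birth that did not pass (adjusted p = 0.23) and a postnatal change of -1.04 that did (adjusted p = 0.0025).

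SEMA6D, known from the chick for its part in heart development, read 321, 339 and 348 at 80 d, 239.6, 300.4 and 294 at 100 d, 296, 207 and 212 at 120 d, 79.9, 107 and 34.4 at 150 d and 176, 122 and 150 at 230 d. The newborn arrays were the lowest of the course, and the arrays at 230 d lay above them and below the fetal arrays. The change at birth was -1.82 ± 0.34 (3.53-fold, adjusted p = 0.0024), and the later difference of 1.15 ± 0.34 between 230 d and 150 d did not pass (adjusted p = 0.063). A second SEMA6D probe set was also lower at 150 d, by -1.47 on the log2 scale (adjusted p = 0.0019). SEMA4F, a semaphorin of class 4, had a postnatal change of -0.51 that did not pass (adjusted p = 0.11).

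Of the 4 tested plexins and neuropilins, 2 were lower and 1 was higher after birth, where 21.7% of all genes were lower and 16.4% higher. PLXNB2, a receptor for class 4 semaphorins, read 706, 554 and 567 at 80 d, 615, 468 and 561 at 100 d, 432, 358 and 371 at 120 d, 241, 250.2 and 214 at 150 d and 262, 227 and 268 at 230 d. Its postnatal arrays all lay below its fetal arrays, a 2.07-fold difference (log2 change -1.05 ± 0.11, adjusted p = 9.4e-06). At birth alone its change of -0.72 missed the threshold (adjusted p = 0.012), and a further probe set gave 0.10 there and -0.73 over the postnatal comparison (adjusted p = 0.0092). PLXNA2, a class A plexin that can bind SEMA6A, ran the other way. It read 124, 95.1 and 87.6 at 80 d, 144, 137 and 154 at 100 d, 57.5, 166 and 96.5 at 120 d, 157, 203 and 215 at 150 d and 189, 185 and 171 at 230 d. PLXNA2 was 1.65-fold higher after birth (adjusted p = 0.0092), with 1 array of 120 d inside the postnatal range. The call was lost when any 1 of 11 of the 15 arrays was left out, and a further PLXNA2 probe set changed by 0.18 (adjusted p = 0.43).

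The neuropilins are co-receptors that semaphorins of class 3 share with vascular endothelial growth factor. NRP1 read 795, 1288 and 1389 at 80 d, 1327, 2089.5 and 1858 at 100 d, 1814, 2374 and 1866 at 120 d, 883, 1327 and 1637 at 150 d and 919, 2192 and 1712 at 230 d. The arrays at 150 d lay below those at 120 d, but the change of -0.69 ± 0.35 did not pass (adjusted p = 0.18). NRP2 read 171, 101 and 120.2 at 80 d, 119, 119.7 and 108 at 100 d, 122, 164 and 103 at 120 d, 104, 86.3 and 88.4 at 150 d and 58.8, 56.4 and 77.9 at 230 d. Its lowest arrays were those at 230 d, and it was 1.60-fold lower after birth (adjusted p = 0.0025), with 1 postnatal array inside the fetal range. Another NRP2 probe set changed by -0.45 and did not pass (adjusted p = 0.017).

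Ephrins are bound to the membrane and signal between cells that touch. Of the 6 ephrin genes, 5 were called lower after birth, but EFNA2, EFNA5 and EFNB3 were detected on fetal arrays alone and had to be lower. Of the other 3, EFNA1 and EFNB1 were lower after birth, and EFNB1 was lower at 150 d than at 120 d. Of all genes detected on both sides of birth, 21.2% and 6.45% were lower in these comparisons. EFNB1, a transmembrane ephrin that can also signal into the cell that carries it, read 267, 174 and 202 at 80 d, 299, 199 and 125 at 100 d, 238, 162 and 191 at 120 d, 98.3, 61.2 and 23.4 at 150 d and 108, 88.1 and 94.9 at 230 d. The postnatal arrays were all below the fetal arrays. EFNB1 was 3.74-fold lower at 150 d than at 120 d (log2 change -1.90 ± 0.44, adjusted p = 0.009) and 2.82-fold lower over the postnatal comparison (adjusted p = 0.0009). The call at birth was lost when any 1 of 12 of the 15 arrays was left out.

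EFNA5, which in the mouse helps to place motor axons on a muscle by position, read 84.2, 107 and 87 at 80 d, 89.1, 155 and 146 at 100 d, 86, 98 and 124 at 120 d, 47.1, 30.5 and 43.1 at 150 d and 17.1, 28 and 38.4 at 230 d. The arrays of the postnatal and fetal stages did not overlap. Since the postnatal values lay under 50, only a bound on the fold can be given, which was at least 2.03-fold lower at 150 d than at 120 d (adjusted p = 0.0081). In the postnatal comparison it was at least 2.12-fold lower (adjusted p = 1.9e-05). The call at birth was lost when any 1 of 12 of the 15 arrays was left out and under 5 of 10 other alternatives. A second EFNA5 probe set passed neither at birth (-0.98, adjusted p = 0.35) nor over the postnatal comparison (-1.06, adjusted p = 0.069).

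EFNB3, a transmembrane ephrin that stops axons at the midline of the mouse spinal cord, was at the edge of detection. It read 97.9, 88.5 and 74.9 at 80 d, 152, 81.7 and 26.7 at 100 d, 111, 69.4 and 47.9 at 120 d, 13.7, 2.6 and 6.8 at 150 d and 4.6, 18.1 and 4.4 at 230 d. Every postnatal array was below every fetal array, and the bound was at least 1.43-fold lower at 150 d than at 120 d (adjusted p = 0.0045) and at least 1.51-fold lower over the postnatal comparison (adjusted p = 5.5e-05). EFNA2 read 79.5, 71 and 70.9 at 80 d, 47.7, 73 and 64.1 at 100 d, 46.3, 36.2 and 45.1 at 120 d, 36.1, 23.6 and 37 at 150 d and 7.5, 30.9 and 12 at 230 d. It had left the usable range by 120 d and was at least 1.15-fold lower after birth (adjusted p = 0.00055).

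EFNA1 had its highest signals at 100 d and 120 d. This ephrin, which is also known in blood vessels, read 398, 365 and 245 at 80 d, 526, 565 and 603 at 100 d, 508, 534 and 514 at 120 d, 270.5, 321 and 372 at 150 d and 289, 359.9 and 217 at 230 d. The arrays at 100 d and 120 d stood above all others, and those at 80 d overlapped with the postnatal ones. EFNA1 was 1.53-fold lower after birth (log2 change -0.61 ± 0.15, adjusted p = 0.0044). This call was lost with array medians set equal (adjusted p = 0.014), with quantile normalization (adjusted p = 0.017), with no filter (adjusted p = 0.011), and without 80 d replicate 2, 150 d replicate 1 or 230 d replicate 3. The difference of 0.78 between 100 d and 80 d did not pass (adjusted p = 0.3). EFNA4 showed no call, with a postnatal change of 0.22 (adjusted p = 0.44).

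EPHA2 was the only Eph receptor gene that could be tested. It read 12.6, 14 and 53.5 at 80 d, 47, 142 and 166 at 100 d, 30.5, 66.6 and 75 at 120 d, 132, 61 and 106 at 150 d and 178, 204 and 153 at 230 d. The values scattered widely within the fetal stages, and the arrays at 230 d stood above all but 1 fetal array. Over the postnatal comparison EPHA2 was at least 2.59-fold higher (log2 change 1.41 ± 0.39, adjusted p = 0.009), a call that was lost when any 1 of 12 of the 15 arrays was left out. The bound is set by the fetal mean, which lay under 50.

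Slits are secreted cues and Robos their receptors. SLIT3 read 386, 319 and 350.3 at 80 d, 416, 239.6 and 216 at 100 d, 196, 192 and 248 at 120 d, 192, 98.1 and 66.7 at 150 d and 32.7, 19.3 and 110.5 at 230 d. The highest postnatal array lay just below the lowest fetal array, and the fall was spread over all stages, with no single step past the threshold. SLIT3 was 4.11-fold lower after birth (log2 change -2.04 ± 0.35, adjusted p = 0.00038). SLIT2 was not called over the same comparison (log2 change -0.06 ± 0.20, adjusted p = 0.83), with signals of 44.9 to 85.5 on postnatal and 33.9 to 111 on fetal arrays.

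ROBO1, the Slit receptor of many neurons, read 221, 215 and 221 at 80 d, 47.1, 147 and 201 at 100 d, 125, 152 and 292 at 120 d, 90.1, 47.5 and 68.7 at 150 d and 71.5, 22.7 and 19.8 at 230 d. Apart from 1 array at 100 d, the fetal arrays were higher than the postnatal ones. ROBO1 was at least 3.26-fold lower after birth (log2 change -1.83 ± 0.37, adjusted p = 0.0012). ROBO4, a Robo of blood vessels, read 216, 130.2 and 148 at 80 d, 258, 300.2 and 252 at 100 d, 326, 269.5 and 239 at 120 d, 206, 114 and 160.2 at 150 d and 201, 109 and 153 at 230 d. Its changes of -0.83 at birth (adjusted p = 0.053) and -0.58 over the postnatal comparison (adjusted p = 0.019) did not pass.

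NTN4, a netrin related to laminins and found in basement membranes, read 258, 321 and 316 at 80 d, 364, 355 and 314 at 100 d, 225, 331 and 306 at 120 d, 138, 58 and 80.8 at 150 d and 214, 99.6 and 229 at 230 d. The newborn arrays were below all fetal arrays, and 1 of the 3 arrays at 230 d reached into the fetal range. NTN4 was 3.28-fold lower at 150 d than at 120 d (log2 change -1.71 ± 0.35, adjusted p = 0.0041) and 2.54-fold lower over the postnatal comparison (adjusted p = 0.00032). The difference of 0.97 between 230 d and 150 d did not pass (adjusted p = 0.12). UNC50, whose homologue in Caenorhabditis elegans is needed to assemble nicotinic acetylcholine receptors, read 86.8, 150.2 and 127 at 80 d, 108, 134 and 139 at 100 d, 119, 105 and 118 at 120 d, 76.1, 86.8 and 77 at 150 d and 83.3, 81.6 and 94.7 at 230 d. A single fetal array lay within its postnatal range. UNC50 was 1.44-fold lower after birth (adjusted p = 0.0059), and the call was lost when any 1 of 10 of the 15 arrays was left out.

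Of the 8 tested genes of the cytoskeleton and the growth cone, 6 were lower after birth, where 21.7% of all genes were. NES had the largest measured fold of the 29 genes. NES encodes nestin, an intermediate filament protein of neural progenitors that is also made by young muscle fibres and is later kept at the neuromuscular and myotendinous junctions. It read 10513, 6478 and 6422 at 80 d, 8255, 4567 and 4401 at 100 d, 4372, 2366 and 1335 at 120 d, 826, 816 and 259 at 150 d and 312, 293 and 292 at 230 d. Postnatal and fetal arrays did not overlap, and 1 of the 3 animals at each fetal stage stood well above the others. NES was 4.29-fold lower at 150 d than at 120 d (log2 change -2.10 ± 0.49, adjusted p = 0.0087) and 11.4-fold lower after birth (log2 change -3.51 ± 0.31, adjusted p = 2.1e-06). A second NES probe set gave smaller changes, -1.15 at birth (adjusted p = 0.021) and -2.35 over the postnatal comparison (adjusted p = 1.6e-06). The call at birth was lost when any 1 of 12 of the 15 arrays was left out, whereas the postnatal call was made whichever array was left out.

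STMN1 encodes stathmin, which destabilises microtubules and is abundant in dividing cells as well as in neurons. Its signals were 8131, 6833 and 7347 at 80 d, 5492, 5603 and 4923 at 100 d, 3911, 3723 and 3545 at 120 d, 3144, 857 and 1289 at 150 d and 744, 845 and 932 at 230 d. All postnatal arrays were below all fetal arrays, and 1 newborn animal was close to the level of 120 d. STMN1 was 4.69-fold lower after birth (log2 change -2.23 ± 0.22, adjusted p = 5.3e-06), and the change at birth alone was -1.30 (adjusted p = 0.018).

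The DPYSL genes encode collapsin response mediator proteins, which relay class 3 semaphorin signals to microtubules. DPYSL5 read 703, 606 and 546 at 80 d, 318, 257 and 275 at 100 d, 82.2, 146 and 96.8 at 120 d, 83.5, 8.2 and 52.4 at 150 d and 35.9, 39.5 and 53.6 at 230 d. The 3 fetal stages did not overlap with each other, and most of the loss lay before 120 d. DPYSL5 was at least 5.27-fold lower after birth (adjusted p = 8.9e-05), and the 5.84-fold difference between 120 d and 80 d did not pass (adjusted p = 0.039). DPYSL3 read 972, 960.1 and 1017 at 80 d, 723, 709 and 818 at 100 d, 602, 738 and 669 at 120 d, 508, 403 and 594 at 150 d and 432, 478 and 528 at 230 d. It declined in small steps with no overlap between postnatal and fetal arrays, to a 1.62-fold difference (adjusted p = 0.00029).

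DPYSL2 was called at birth. It read 2996, 2754 and 3179.8 at 80 d, 3056, 2933 and 2559.6 at 100 d, 3142, 3008 and 3333 at 120 d, 1677, 1899 and 2270.3 at 150 d and 1496, 1718 and 1694 at 230 d. The fetal arrays formed 1 group and the postnatal arrays another below it. DPYSL2 was 1.63-fold lower at 150 d than at 120 d (log2 change -0.71 ± 0.17, adjusted p = 0.009) and 1.68-fold lower over the postnatal comparison (adjusted p = 9e-05). The call at birth was lost when any 1 of 14 of the 15 arrays was left out. Of its other probe sets, 1 gave -0.67 at birth (adjusted p = 0.048) and -0.56 over the postnatal comparison (adjusted p = 0.0061), and 1 gave -0.21 (adjusted p = 0.74) and 0.04 (adjusted p = 0.9). DPYSL4 was not called, with a postnatal change of 0.45 (adjusted p = 0.082).

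MAP1B, a microtubule-associated protein of growing axons, read 213, 247 and 307 at 80 d, 167, 244 and 202 at 100 d, 53.4, 85.7 and 179 at 120 d, 104, 88.7 and 88 at 150 d and 26.9, 37.4 and 49 at 230 d. The arrays at 120 d and 150 d overlapped, with a change between them of -0.00 ± 0.37, and those at 230 d were below all others. MAP1B was 2.88-fold lower after birth (log2 change -1.52 ± 0.24, adjusted p = 0.00019), and a second probe set was lower by -1.11 on the log2 scale (adjusted p = 0.0011). GAP43, the classical growth cone protein, stayed near the limit of detection. It read 42.9, 46 and 53.1 at 80 d, 45.5, 36.2 and 40.1 at 100 d, 69.6, 58.3 and 17.4 at 120 d, 87.1, 39.5 and 48.1 at 150 d and 52.2, 93.4 and 13.4 at 230 d. The stages overlapped throughout, and its postnatal change was 0.13 ± 0.41 (adjusted p = 0.81).

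**Figure D4:**
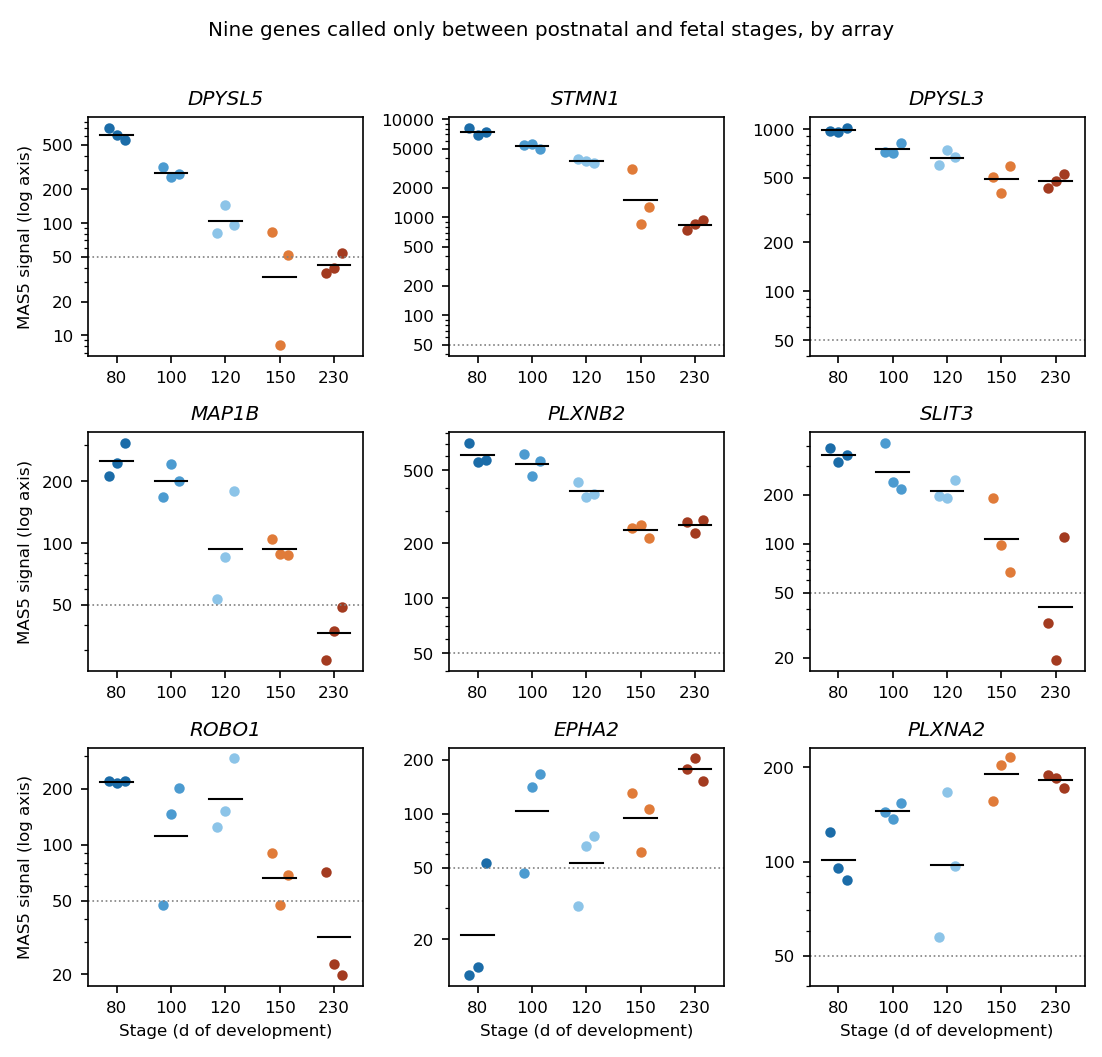
Signal per array of 9 genes that were called between postnatal and fetal stages but not between 150 d and 120 d, on log axes, by stage in days. Points are single animals, horizontal lines geometric means of 3 animals, and the dotted line a signal of 50. DPYSL5, STMN1 and PLXNB2 decline from early stages on, MAP1B shows no step at birth, and EPHA2 and PLXNA2 are higher after birth.

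S100B was highest at 120 d, the last fetal stage sampled. It encodes a calcium-binding protein that marks Schwann cells and is also found in muscle and fat cells. It read 341, 225 and 236 at 80 d, 426, 371 and 405 at 100 d, 702, 653 and 605 at 120 d, 274, 184 and 214 at 150 d and 323, 250 and 431 at 230 d. The arrays at 120 d stood above all others, and those at 100 d stood above those at 80 d. S100B was 2.95-fold lower at 150 d than at 120 d (log2 change -1.56 ± 0.24, adjusted p = 0.00074). It was 2.48-fold higher at 120 d than at 80 d (log2 change 1.31 ± 0.24, adjusted p = 0.0088) and 1.52-fold lower after birth (adjusted p = 0.0055). The call at 120 d was lost when any 1 of 10 of the 15 arrays was left out, and the postnatal call when any 1 of 9 was.

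Within fetal life few changes passed the test. S100B was the only call among the 29 genes between 120 d and 80 d, where the shares of all probe sets called were 0.931% for higher and 0.381% for lower signals, and 12 of the 29 genes had an unadjusted p under 0.05. The arrays at 120 d lay wholly below those at 80 d for 11 genes and above them for 4, against 14.2% and 12.5% of all probe sets. NES differed by -1.66 (adjusted p = 0.083), MAP1B by -1.43 (adjusted p = 0.05) and STMN1 by -0.99 (adjusted p = 0.15). By the moderated F-statistic 5 genes were lower at 120 d than at 80 d (DPYSL3, DPYSL5, MAP1B, NES and PLXNB2), and S100B was higher. That F p-value covers neighbouring stages, so a gene could pass it through another step. The contrast was then called at an unadjusted p, and the share of all probe sets was not computed for it. By limma the adjusted p of the 5 lower genes was 0.039 to 0.11.

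Between 100 d and 80 d limma called 0 of the 29 genes, with 6 at an unadjusted p under 0.05, and the moderated F-statistic called EFNA1 and EPHA2 higher. For the limma calls the background was as low, with 0.106% of all probe sets called higher and 0.0188% called lower. Between 120 d and 100 d limma called 0 genes, with 5 at an unadjusted p under 0.05, and the F-statistic called 0. There the background by limma was 0.0375% for higher and 0.0188% for lower signals. Between 230 d and 150 d limma again called 0 genes, with 8 at an unadjusted p under 0.05, and the F-statistic called SEMA6D higher and MAP1B lower. In that interval 0.944% of all probe sets were higher and 1.08% lower by limma.

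Genes that carry guidance signals further into the cell were described from a list of 38, of which 24 were tested. At 150 d 5 were lower than at 120 d and 1 was higher, with a median log2 change of -0.43, where 6.53% of all genes were lower and 6.73% higher. TRIO, an exchange factor that acts below netrin receptors, was 2.78-fold lower (adjusted p = 0.0028). NCK2, an adaptor between receptors and actin, was 2.50-fold lower (adjusted p = 0.0033), and GNAI1, an inhibitory G protein subunit, was 2.27-fold lower (adjusted p = 0.0012). CFL2, the cofilin of muscle, which severs actin filaments, was 4.26-fold higher (adjusted p = 0.00046). Over the postnatal comparison 13 genes of the list were lower and 3 were higher, against 21.7% and 16.4% of all genes.

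A list of 30 genes held tubulins, microtubule-associated proteins and the growth cone proteins MARCKS, MARCKSL1 and BASP1, which are membrane-bound substrates of protein kinase C. Of the 30 genes 19 were tested, and at 150 d 4 were lower and 3 higher than at 120 d, where 6.53% of all genes were lower and 6.73% higher. The 4 lower genes were these 3 and the beta tubulin TUBB2B. MARCKSL1 and BASP1 were 5.03-fold (adjusted p = 0.0008) and 2.79-fold lower (adjusted p = 0.00074). TUBA4A, an alpha tubulin, was 5.60-fold higher (adjusted p = 0.00032), and TUBG1, the gamma tubulin of microtubule organising centres, was 2.50-fold higher (adjusted p = 0.0013). Over the postnatal comparison 8 were lower and 6 higher, against 21.7% and 16.4% of all genes. The list thus split in both directions, and its median change was -0.01 at birth.

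Other guidance cues, receptors and adhesion molecules (22 listed, 6 tested) had 0 calls at birth, and 3 genes were lower after birth, where 21.7% of all genes were. These were NCAM1, an adhesion molecule of neurons and young muscle fibres, and the chemokine CXCL12 and its receptor CXCR4, named here after their values were seen. NCAM1 was at least 2.82-fold lower (adjusted p = 0.00064), CXCL12 1.83-fold (adjusted p = 0.00042) and CXCR4 3.16-fold lower (adjusted p = 0.00061). The stage means of NCAM1 were under 50 at both postnatal stages. Of 21 neurotrophic factors and receptors 9 were tested, with 0 calls at birth and 2 lower genes after birth, a share close to the 21.7% of all genes. PTN, a heparin-binding growth factor for neurites, was 5.95-fold lower (adjusted p = 1.6e-05), and NTRK2, the receptor of brain-derived neurotrophic factor, was 2.04-fold lower (adjusted p = 0.0031), both also chosen after their values were seen.

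Markers of the cell types that the muscle holds were read beside these genes. The tissue carried the markers of skeletal muscle at every stage, with a summed signal of 6 fibre genes of 171112 to 229498 at 230 d, against 56474.3 to 73265.9 at 80 d, and none of the 6 was under 50 at any stage. Of 9 neuronal markers on the array, NEFL, ELAVL4, SYT1 and GAD1 were under 50 at all stages. The summed neuronal signal was 1098.5 to 1152.6 at 80 d, 598.9 to 1014.8 at 100 d, 539.9 to 664 at 120 d, 543.3 to 687 at 150 d and 518.7 to 609.5 at 230 d, so that the stages on either side of birth overlapped. Of 5 tested, 0 were called at birth. After birth 3 were lower (NEFM, SNAP25 and UCHL1) and 1 was higher (MAPT). Of all genes 21.7% were lower and 16.4% higher. NEFM had a stage mean of 50 or more at 80 d alone, and SNAP25 at 80 d and 100 d alone. The filter thus favoured a lower postnatal call for both. The postnatal and fetal means of NEFM (9.48 and 34.9) were both under 50, so no fold is given.

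Of 9 Schwann cell markers, MAL and GFAP were under 50 at all stages. The summed signal was 347.8 to 548.9 at 150 d, against 533 to 656.6 at 120 d, and 0 of 7 tested markers were called there. After birth 3 of the 7 were lower (MBP, CNP and FABP7), where 21.7% of all genes were. NGFR changed by -0.74, SOX10 and GJB1 by 0.46 and MAL by 1.23, and these did not pass. The 9 endothelial markers summed to 2196.6 to 3993.6 at 150 d, against 6113.4 to 7115.7 at 120 d, with no overlap. Most of this sum came from PECAM1 and CDH5, with geometric means of 3460 and 1360 at 120 d. PECAM1, CDH5, TEK and TIE1 were lower at 150 d, 4 of 9 tested, by 2.42-fold to 3.39-fold. EGFL7, KDR and VWF changed by -2.28, -0.82 and -0.80 without passing. CLDN5 and ENG changed by -0.06 and 0.10. Of all genes 6.53% were lower there. Several members, such as NRP1, ROBO4 and EFNA1, are known in vessels, and the part of endothelial RNA in their courses was not tested.

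Markers of dividing cells, 5 on the array, summed to 2153.9 to 2313.1 at 80 d, 1602.2 to 1934.6 at 100 d, 1014.2 to 1278.4 at 120 d, 729.5 to 1776.2 at 150 d and 567.7 to 800.7 at 230 d. STMN1 and NES also fell from 80 d to 230 d. Between 120 d and 150 d NES was 4.29-fold lower, and STMN1 was 2.46-fold lower without a call. The mean summed signal of the dividing cell markers was 1150 at both of these stages, with the wider range at 150 d. Most of that sum came from PCNA, with geometric means of 730 at 120 d and 715 at 150 d. Of the 4 tested dividing cell markers 0 were called between these stages, with a median log2 change of -0.41. After birth 3 of the 4 were lower (CCNB1, CDK1 and PCNA), where 21.7% of all genes were. Markers of muscle stem cells and myoblasts, also 5, summed to 872 to 1146.9 at 230 d, against 3201.9 to 3269.9 at 80 d. Most of this sum came from ITGA7 and MYOG, with geometric means of 1780 and 1020 at 80 d. After birth 3 of the 5 were lower (ITGA7, MYOG and NCAM1), where 21.7% of all genes were. NCAM1 had stage means of 50 or more at fetal stages alone, which favoured a lower postnatal call. MYF5 was under 50 at every stage, and MYOD1 changed by -0.33 without a call (adjusted p = 0.29). Fibroblast markers (8) summed to 42787.8 to 50424.2 at 230 d, against 55743.3 to 73901.2 at 80 d. After birth 5 of the 8 were lower (COL1A1, DCN, LUM, THY1 and DPT), against 21.7% of all genes. COL1A2, COL3A1 and PDGFRA changed by 0.06, -0.25 and 0.74 without a call. At birth 1 of the 8 was lower, where 6.53% of all genes were. The mean sum was 66600 at 120 d and 61500 at 150 d. The part of each of these cell types in the results was not tested.

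**Figure D5:**
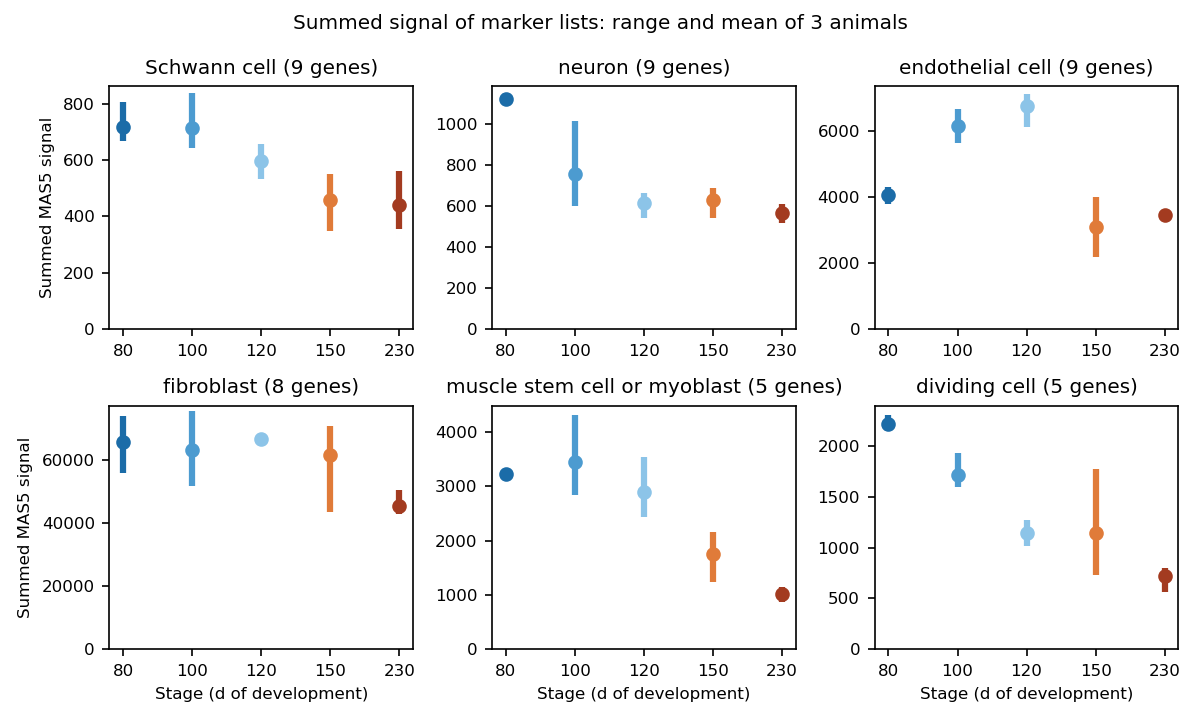
Summed signal of 6 marker lists (Schwann cell, neuron, endothelial cell, fibroblast, muscle stem cell or myoblast, dividing cell) by stage in days. Vertical lines span the 3 animals of a stage, points are their mean, and the y axis of each panel starts at 0. The endothelial mean is highest at 120 d and lowest at 150 d, and the neuronal and dividing cell means are highest at 80 d.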

How the data were processed

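Total RNA from LD muscle of 15 sheep was labelled with biotin and hybridised to the Affymetrix bovine genome array. The deposited values are linear signal intensities from MAS5, of unstated version. To make them, the authors subtracted a regional background, summarised the perfect match and mismatch probes of a set by Tukey's biweight, and brought all arrays to the same mean (200). Control probe sets (112) were removed, which left 24016, and 15998 were kept because 3 or more arrays read 50 or higher. Signals under 0.1 (2 values) were set to 0.1 before log2 was taken.

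The test was that of limma 3.58.1 under R 4.3.3 (lmFit and eBayes without a trend, 5 stage means, 10 residual degrees of freedom). P-values were adjusted by the Benjamini-Hochberg method over the 15998 probe sets within each of 6 contrasts, and calls were made at 0.01. Fold changes are ratios of geometric means. Where 1 of 2 means lay under 50 the fold was taken against 50 and is a lower bound, and where both did none is given. Genes were named through the annotation of the platform, by which 13292 probe sets had 1 symbol, 86 several and 10638 none. Every gene found by the rule could be named. Values of each array are given for genes past the test in any contrast or among the 10 listed genes, and, after the values were seen, for ROBO4. Of the related lists up to 4 genes were named with values, those past the test with the largest change between 150 d and 120 d. In the tubulin list MARCKS and TUBB2B, also lower at 150 d, were named without values. The members and all lists were chosen with earlier results of these data known. Replicate numbers only name animals. With 3 arrays per stage the precision is limited by their number. The test was also run on simulated data of 15998 probe sets, with 50 changed at each fold. There the contrast of 150 d with 120 d called 12% of 2-fold and 62% of 4-fold changes. That of postnatal with fetal stages called 44% and 86%. Far more probe sets were called in the data, and the adjustment depends on their number, so these shares need not hold there. The alternatives were 2 other scalings, an offset, 2 other filters, the trend and robust options of limma, the moderated F-statistic, only the arrays compared, a replicate block, another choice of probe set, and each array left out in turn. Leaving out UNC50, or genes detected on no postnatal array, was chosen after seeing the data. Plots were made in Python 3.11.15 with matplotlib 3.10.9.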

Additional observations from a re-analysis of the deposited data

How the results depend on the processing

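None of 32 gene results that passed the test changed sign under the alternatives run for it. The only other choice of probe set among these alternatives was the one with the highest stage mean. Of the probe sets that neither choice took, 1 of DPYSL2 gave 0.04 after birth, against -0.75. Of the 32, 16 kept their call under each alternative run other than leaving out arrays. These 16 are comparisons of postnatal with fetal stages, which use all arrays, so that a fit to only the arrays compared is no alternative for them. The 10 results of other contrasts had that alternative and lost their call under it. Of the 32, 19 were called whichever array was left out. The 9 genes lower at 150 d than at 120 d became 5 with array medians set equal, 3 with no filter on low signals and 0 with only the arrays of these stages. The other alternatives gave 8 to 12. Without single arrays the count was 3 to 8, and of higher genes 0 to 1. The 1 gene higher at 120 d than at 80 d became 0 with no filter and 0 with only the arrays compared, and 0 to 1 without single arrays. Lower genes in that contrast numbered 1 with an offset of 16, 5 by the moderated F-statistic, 1 with only the arrays compared and 0 to 1 without single arrays. By the F-statistic 2 genes were higher at 100 d than at 80 d. At 230 d the F-statistic called SEMA6D higher (1 gene) and MAP1B lower (1 gene) than at 150 d, and leaving out 230 d replicate 2 gave 1 lower gene. The other counts between neighbouring stages stayed at 0. After birth the 2 higher genes became 0 with no filter, 1 by the F-statistic and 0 to 1 without single arrays, and the 20 lower genes 17 to 21. They were 19 without UNC50 and 17 without the 3 genes detected on no postnatal array, which also left 7 lower genes at birth. The cause of these differences was not tested. Setting array medians equal moved the median change of all probe sets between 150 d and 120 d to -0.03, against -0.15 as deposited.

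Different animals were used at each stage, and the correlation of same-numbered arrays was -0.053 to 0.21 (mean 0.045 over 30 pairs). Of the 15 arrays, 8 correlated best with their own number. With a replicate block the count at birth was 9, with DPYSL2 lost (adjusted p = 0.013), and after birth it was 21 lower and 1 higher, with PLXNA2 lost (adjusted p = 0.013).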
